A study of Mus musculus with 12 samples.

Results

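The *Polycomb* and trithorax group genes encode the enzymes, readers and scaffold subunits that set repressive and active histone marks. The 45 genes described here are subunits of *Polycomb* repressive complexes 1 and 2 (PRC1 and PRC2), of the complexes that methylate lysine 4 of histone H3 (H3K4), and of enzymes that remove or oppose methylation of lysine 27 (H3K27) or ubiquitination of histone H2A. They were selected by gene symbol as 45 of the 18903 genes in the count table, and all 45 were among the 17938 genes with enough reads to be tested. The rule used symbols and no measured value. By role it held 6 PRC2 core subunits, 6 PRC2 accessory subunits, 2 catalytic and 6 PCGF subunits of PRC1, 7 CBX and PHC subunits of canonical PRC1, 3 subunits of variant PRC1, 2 subunits of the H2A deubiquitinase, 6 H3K4 methyltransferases, 4 shared subunits of the H3K4 methyltransferase complexes, and 3 enzymes acting on H3K27.

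The study asked how loss of *Rack7* (*Zmynd8*), a chromatin reader, alters the transcriptome of astrocytes during postnatal development. RNA-seq was performed on primary astrocytes cultured from mouse brain at postnatal day 1 (P1), P6 and P8, from control (WT) and *Rack7*-cKO animals, giving 6 groups of 2 libraries. In the cKO animals, *Rack7* exons flanked by loxP sites are removed by Cre under the human GFAP promoter, which acts in neural stem cells of the embryonic dorsal forebrain, so cells of a culture that do not descend from them would keep the gene. The floxed line was made in C57BL/6 zygotes. By the study's definition of its mice, the controls labelled WT carry the same hGFAP-Cre with both *Rack7* alleles intact, so Cre is shared by all groups. Brains were stripped of meninges, dissociated and grown in astrocyte medium, and microglia and oligodendrocyte-lineage cells were shaken off before harvest, so every value refers to cells after culture. The labels call the libraries of a group biological replicates without naming animals, and the p-values measure the spread between these libraries.

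PRC2 places methyl groups on H3K27, and PRC1 binds that mark through its CBX subunits and adds ubiquitin to H2A, which together keep developmental genes silent. The trithorax-type complexes of the KMT2 and SETD1 enzymes methylate H3K4 at active promoters and enhancers, and CREBBP and EP300 acetylate H3K27 where PRC2 would methylate it. In neural progenitors and glia these systems are known for setting when neurogenic genes close and gliogenic genes open.

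Total counts ran from 54413504 to 89183250 per library. *Zmynd8* itself was higher, not lower, in the libraries labelled cKO, with log2 fold changes of 0.65, 1.04 and 0.70 at P1, P6 and P8. Counts were made per gene, so reads over the deleted exons could not be examined separately, and all directions below are given for the libraries as labelled. Astrocyte markers such as *Gfap*, *Aqp4* and *Slc1a3* were present in all groups, with a summed level over 10 markers of 971 to 2546 CPM (the count of a gene scaled by library size). Markers of other cells were present too and differed between groups. The sum of 8 fibroblast and meningeal markers was 464 to 479 CPM in P1 WT, 2549 to 2595 in P1 cKO, 6904 to 6956 in P6 WT, 2755 to 2931 in P6 cKO, 26091 to 26222 in P8 WT and 8299 to 8551 in P8 cKO. Over 8 oligodendrocyte lineage markers the sum was 108 to 193 CPM, over 4 neuronal markers 120.1 to 403, and over the endothelial and mural markers 1698 to 2785, across all libraries. The sum of 9 microglial markers was 2480 to 3645 CPM in all groups except P8 cKO, where it was 4997 to 5040, and the astrocyte sum was lowest in that same group, at 971 to 975 CPM. Their part in the differences described below was not tested. In bulk RNA, fewer cells of a type and less RNA per cell cannot be told apart.

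To set sequence beside expression, the stretches before the annotated start are shown for the subunits whose levels the results turn on: the paralogous methyltransferases *Ezh1* and *Ezh2*, which moved in opposite directions between P6 and P8 in cKO, *Phf19*, which had the largest fall among the members called between those ages in WT, and *Rnf2* and *Cbx7*, which differed between genotypes. Each is written 5′ to 3′ on the minus strand of GRCm38 from RefSeq, and all but the second *Ezh2* stretch leave out bases that GENCODE vM21 places in an exon. They are in lower case, with matches on either strand to TTTNNCGC (an E2F-type motif) or GGGCGG (a GC box) in capitals.
Ezh1, chr11:101226464-101226713, outside annotated genes: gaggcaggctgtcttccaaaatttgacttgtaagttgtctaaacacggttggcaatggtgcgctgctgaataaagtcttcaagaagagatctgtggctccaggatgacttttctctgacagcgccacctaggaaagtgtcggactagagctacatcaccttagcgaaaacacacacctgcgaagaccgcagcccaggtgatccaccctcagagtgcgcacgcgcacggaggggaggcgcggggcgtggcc
Ezh2, chr6:47595059-47595183, within the annotated gene but outside its exons: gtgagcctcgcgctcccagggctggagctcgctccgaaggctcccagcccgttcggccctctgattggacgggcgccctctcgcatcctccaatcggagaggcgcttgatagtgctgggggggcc
Ezh2, chr6:47595009-47595038, across the start: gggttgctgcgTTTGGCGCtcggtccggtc
Phf19, chr2:34914027-34914215, outside its exons and within the annotated gene Gm13448: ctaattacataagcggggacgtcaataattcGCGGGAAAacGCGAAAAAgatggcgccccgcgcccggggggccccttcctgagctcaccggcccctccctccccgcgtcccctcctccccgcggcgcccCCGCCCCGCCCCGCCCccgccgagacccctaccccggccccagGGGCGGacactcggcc
Rnf2, chr1:151500992-151501241, outside annotated genes: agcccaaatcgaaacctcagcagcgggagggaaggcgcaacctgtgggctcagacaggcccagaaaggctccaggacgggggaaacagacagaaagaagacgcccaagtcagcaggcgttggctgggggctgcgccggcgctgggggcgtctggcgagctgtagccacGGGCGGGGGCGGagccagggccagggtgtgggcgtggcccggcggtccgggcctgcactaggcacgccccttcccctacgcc
Cbx7, chr15:79932769-79932896, within the annotated gene but outside its exons: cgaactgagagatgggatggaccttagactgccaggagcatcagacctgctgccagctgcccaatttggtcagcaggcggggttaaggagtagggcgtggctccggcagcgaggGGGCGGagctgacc

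The 2 paralogues differed in these letters. *Ezh2* held 1 match to TTTNNCGC, which began at base 4 counted from its start, and the *Ezh1* window held none. *Phf19* held 2 matches to TTTNNCGC and 4 to GGGCGG. Windows of 300 bases ran from 250 before to 50 after each start, and the 36 members found had 49 of them. TTTNNCGC was found in 5.17% of all 32851 windows and in 5 of the 49 member windows. These belonged to *Asxl1*, *Ep300*, *Ezh2*, *Phf19* and *Suz12*. GGGCGG was found in 35.7% of all windows and in 37 of the 49 member windows. The latter belonged to 29 members, among them *Cbx6*, *Cbx7*, *Rnf2* and *Phc2*. These matches describe letters only.

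On GRCm38, the annotated genes span chr6:47530139-47595341 for *Ezh2*, chr11:101191115-101226463 for *Ezh1*, chr1:151458004-151500955 for *Rnf2*, chr15:79915807-79971119 for *Cbx7*, chr15:79823896-79834688 for *Cbx6* and chr11:69398508-69413675 for *Kdm6b*, all on the minus strand, and chr5:108461232-108506976 for *Pcgf3* and chr19:36348309-36460970 for *Pcgf5*, on the plus strand.

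Levels of different genes were set side by side per kilobase of exon, taking as length the union of all exons annotated for a gene. The isoforms in use were not examined, so the order below depends on annotated length. On this scale the chromatin-assembly subunit *Rbbp7* had the highest level of the set at 49.4 ± 7.65 CPM per kilobase (mean ± SD, n = 12 libraries). *Rbbp4*, its paralogue, stood next at 21.3 ± 2.25, followed by *Yaf2* at 20.4 ± 1.85, *Rnf2* at 18.4 ± 2.10 and *Bmi1* at 17.5 ± 1.76, and the ranges of these 4 over libraries overlapped. Without division by length, *Rbbp4* stood above *Rbbp7*, with means of 186 and 144 CPM. The enzymes of PRC2 were lower, with *Ezh1* at 5.04 ± 0.824 and *Ezh2* at 4.29 ± 0.895 CPM per kilobase, while their scaffold partners *Suz12* and *Eed* stood at 14.7 ± 2.29 and 10.7 ± 1.33. Within PRC1 the catalytic paralogue *Rnf2* exceeded *Ring1* (5.92 ± 0.458) in every library, by 2.25 to 3.87 times. Among the CBX readers *Cbx6* led at 13.2 ± 3.03, with *Cbx7* at 1.97 ± 0.590, *Cbx8* at 1.69 ± 0.330 and *Cbx2*, the lowest member of all 45, at 0.994 ± 0.355. The plot of levels by role gives all 45.

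**Figure D1:**
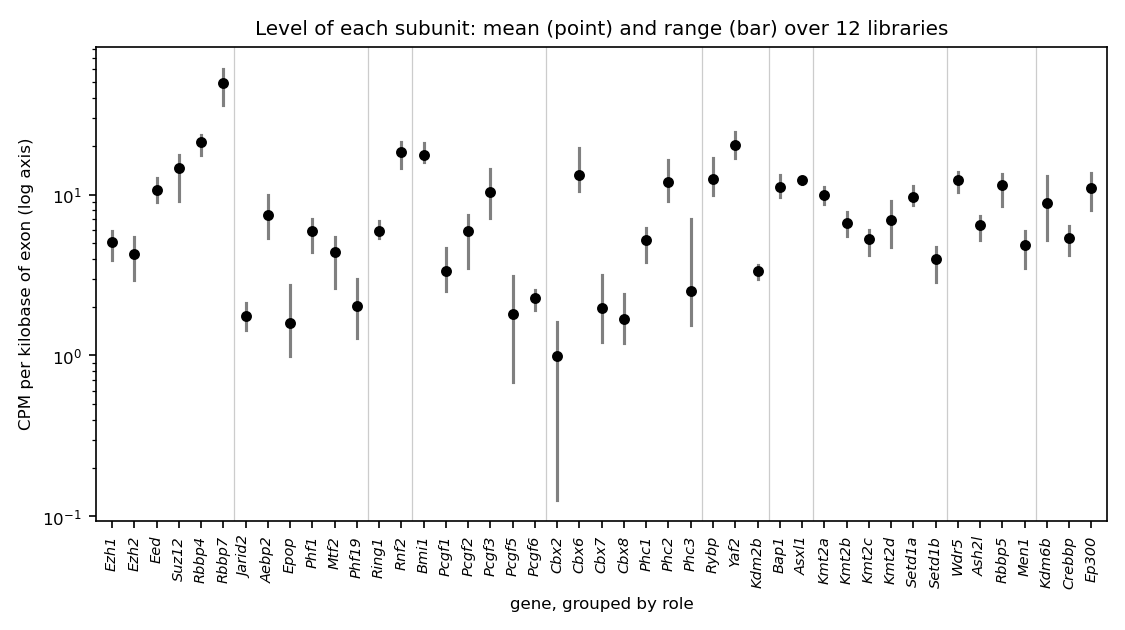
Level of each of the 45 subunits in CPM per kilobase of exon (log axis), with genes on the horizontal axis grouped by role, points at the mean of 12 libraries and bars from the lowest to the highest library. *Rbbp7* sits highest at 49.4 and *Cbx2* lowest at 0.994, and the long bars of *Cbx2*, *Phc3* and *Pcgf5* mark genes whose libraries differed most.

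Few of the subunits differed between genotypes, and the differences were small. At P1, 1 of 45 rose in the libraries labelled cKO and 0 fell, against 9.48% of all genes called, 6.54% higher and 2.94% lower. An unadjusted p below 0.05 was reached there by 9 members, and DESeq2 called 3. At P6, 5 rose and 3 fell, against 25.7% of all genes, 13.2% higher and 12.5% lower. At P8, 3 rose and 4 fell, against 34.4% of all genes, 19.6% higher and 14.8% lower. Here and below, a gene was called at an adjusted p below 0.05 in the edgeR quasi-likelihood fit, adjusted by Benjamini-Hochberg over all genes tested. As shares, 2.22%, 17.8% and 15.6% of the subunits were called at P1, P6 and P8, each lower than the share of all genes. The median absolute log2 difference of the subunits was 0.098, 0.16 and 0.11 at the 3 ages, beside 0.18, 0.27 and 0.33 over all genes. Requiring in addition a fold change of at least 1.5 left 0 of 45 at P1, 1 at P6 (*Cbx7*) and 2 at P8 (*Pcgf5* and *Epop*), where 4.9%, 13.5% and 19.6% of all genes passed. With an unadjusted p below 0.05 and that fold, 2, 3 and 2 members passed, against 8.86%, 16.9% and 22.4% of all genes. The plot of genotype differences by age gives the values of all members.

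**Figure D2:**
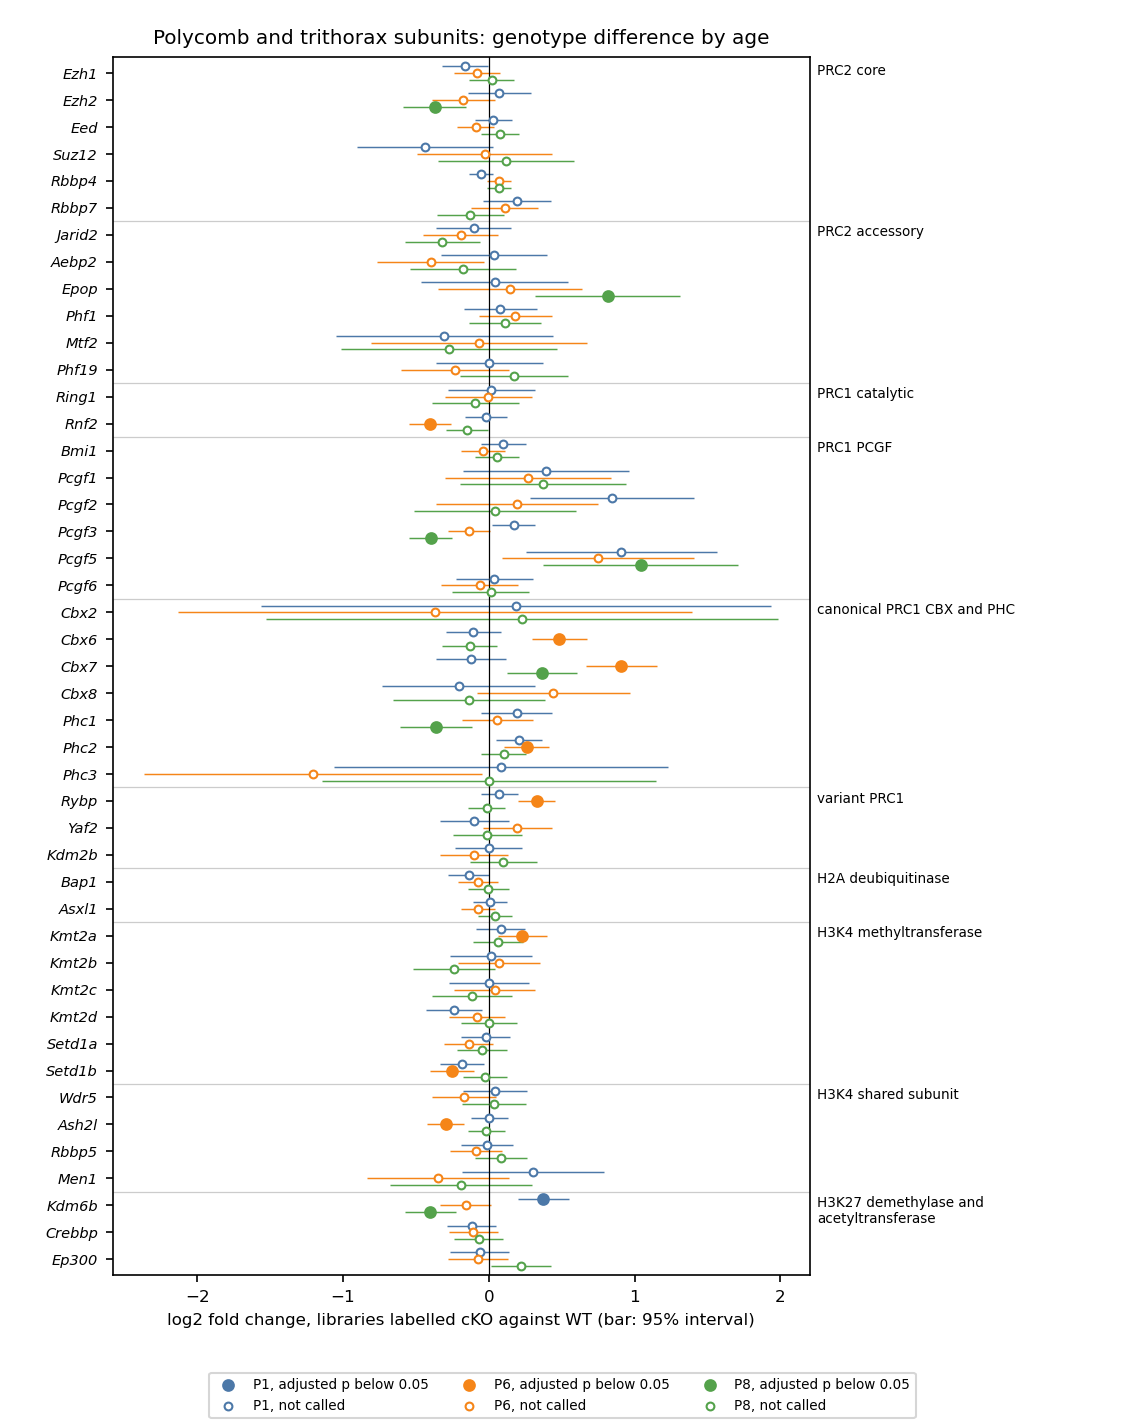
Log2 fold change of the libraries labelled cKO against WT (horizontal axis) for each subunit, grouped by role, at P1 (blue), P6 (orange) and P8 (green), with bars for the 95% interval of the edgeR fit and filled points for an adjusted p below 0.05. Filled points are 1 at P1, 8 at P6 and 7 at P8, most lie within 0.5 of 0, and among the widest intervals are those of *Cbx2* and *Phc3*.

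The PRC2 core, the subunits that form the methyltransferase itself, held 1 call among its 6 genes at the 3 ages. *Ezh2*, the methyltransferase of dividing cells, had 36.3 and 32.7 CPM in P1 WT and 36.2 and 36.2 in P1 cKO, 28.4 and 30.9 in P6 WT and 27.3 and 25.3 in P6 cKO, and 27.5 and 23.6 in P8 WT and 19.8 and 19.8 in P8 cKO. The P8 cKO libraries were the lowest of the 12 and lay apart from the P8 WT pair. *Ezh2* fell there by a log2 difference of -0.37 (SE 0.096, edgeR adjusted p = 0.0149), a fold of 0.773. The call was lost without P8 WT replicate 1 (log2 -0.26), P8 cKO replicate 1 (-0.37) or P8 cKO replicate 2 (-0.37), with edgeR adjusted p of 0.0687 to 0.114. At P1 and P6 its log2 differences were 0.071 (95% interval -0.14 to 0.29) and -0.17 (-0.39 to 0.042), and neither was called.

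*Ezh1*, the paralogue that prevails in non-dividing cells, was not called by genotype. It had 38.9 and 43.4 CPM in P1 WT and 37.1 and 36.4 in P1 cKO. The P6 values were 31.3 and 30.3 in WT and 29.2 and 29.2 in cKO, and those at P8 were 44.2 and 42.2 in WT and 44.0 and 43.6 in cKO. The cKO pair was lower at P1 and P6, and the P8 pairs overlapped. The log2 differences were -0.16 (-0.32 to -0.0070), -0.079 (-0.24 to 0.079) and 0.019 (-0.14 to 0.18), none of them called. The ratio of *Ezh2* to *Ezh1* per kilobase was 0.838 to 1.04 in the P1 WT libraries and 1.09 to 1.11 in P1 cKO, and by P8 it was 0.624 to 0.693 in WT and 0.501 to 0.506 in cKO. Each genotype thus went from near parity to an excess of *Ezh1*, and the P8 pairs did not overlap.

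*Eed*, the subunit that reads trimethylated H3K27, had 46.5 and 46.8 CPM in P1 WT, 46.9 and 48.4 in P1 cKO, 36.4 and 37.0 in P6 WT, 34.8 and 34.2 in P6 cKO, 39.9 and 38.1 in P8 WT and 40.7 and 41.4 in P8 cKO. In cKO the pair was slightly above WT at P1 and P8 and below it at P6. Its log2 differences of 0.031 (-0.098 to 0.16), -0.091 (-0.22 to 0.038) and 0.075 (-0.054 to 0.20) were not called. *Suz12*, the scaffold on which PRC2 assembles, had 82.7 and 86.4 CPM in P1 WT but 44.9 and 80.2 in P1 cKO. One P1 cKO library alone was low, and the log2 difference of -0.44 (-0.90 to 0.030) was not called (edgeR adjusted p = 0.266). Without P1 cKO replicate 2, leaving the low library, it was -0.92 with an edgeR adjusted p of 0.000492. At P6 the *Suz12* pairs were 70.2 and 65.0 in WT and 63.5 and 69.1 in cKO, and at P8 74.9 and 73.5 in WT and 80.0 and 80.9 in cKO, with log2 differences of -0.028 and 0.12. *Rbbp4* and *Rbbp7*, the histone-binding subunits, ranged over 154 to 205 and 104 to 176 CPM and were not called between genotypes at any age.

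**Figure D3:**
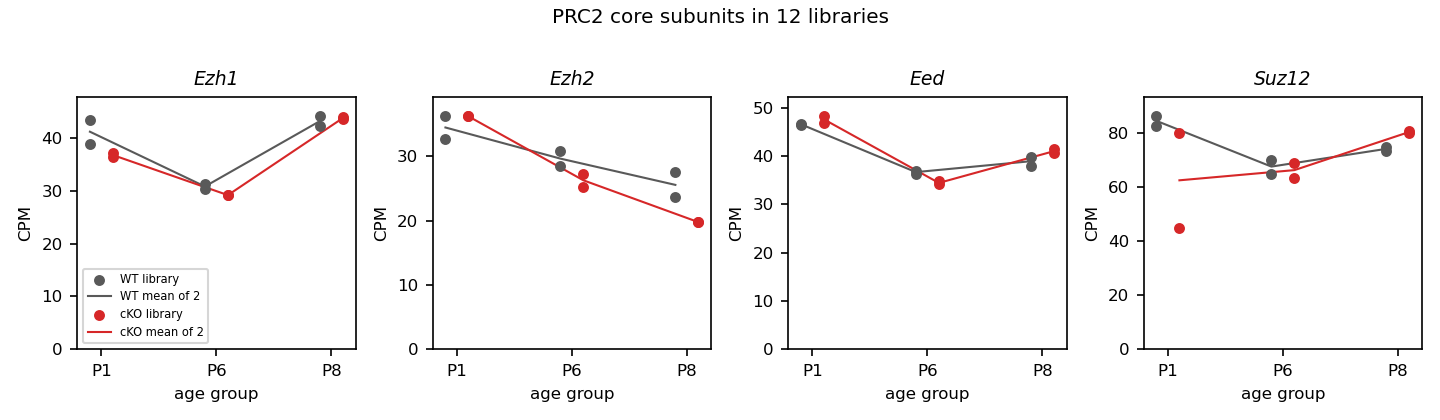
CPM of *Ezh1*, *Ezh2*, *Eed* and *Suz12* (vertical axis from 0) at P1, P6 and P8, with a point for each library, lines through the mean of each pair, WT in grey and cKO in red. The P8 cKO points of *Ezh2*, both at 19.8, lie below the P8 WT points, and 1 of the P1 cKO points of *Suz12* stands far below the other.

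Among the PRC2 accessory subunits, *Epop*, which links PRC2 to elongin and lowers its output, was higher in P8 cKO. It had 3.67 and 2.85 CPM in P8 WT and 6.38 and 5.09 in P8 cKO, beside 2.29 to 4.23 in all libraries of P1 and P6. The P8 pairs did not overlap, and *Epop* rose by a log2 difference of 0.82 (SE 0.22, edgeR adjusted p = 0.0179), a fold of 1.76. It was not called without P8 WT replicate 2 (0.65) or P8 cKO replicate 1 (0.64), with edgeR adjusted p of 0.122 in each case. *Jarid2*, which recruits PRC2 and tunes its activity, had 15.8 and 16.6 against 13.9 and 16.2 CPM at P1 in WT and cKO, 20.1 and 20.0 in P6 WT against 17.6 and 17.5 in P6 cKO and 20.7 and 16.8 against 14.9 and 15.1 at P8. The cKO pair was lower than the WT pair at P6 and P8, and the P1 pairs overlapped. Averaged over the 3 ages *Jarid2* fell by a log2 difference of -0.20 (SE 0.066, edgeR adjusted p = 0.0420), a call lost on leaving out 10 of the 12 libraries in turn (-0.22 to -0.15).

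The 3 *Polycomb*-like proteins, which bring PRC2 to unmethylated CpG islands, were not called between genotypes. *Phf1* ranged over 15.3 to 24.6 CPM and *Phf19* over 6.49 to 15.1. *Mtf2* had replicates that disagreed, with 30.2 and 15.0 CPM in P6 WT and 27.1 and 16.3 in P1 cKO, and its interval at P1 ran from -1.05 to 0.44. *Aebp2*, a cofactor that stabilises PRC2 on nucleosomes, had 97.5 and 95.97 CPM in P6 WT and 65.9 and 80.8 in P6 cKO, which did not overlap, at a log2 difference of -0.40 (-0.76 to -0.034, edgeR adjusted p = 0.107).

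In PRC1, the catalytic subunit *Rnf2* (RING1B), the main H2A ubiquitin ligase, had 70.0 and 72 CPM in P1 WT and 70.7 and 69.5 in P1 cKO, then 84.0 and 86.8 in P6 WT against 60.6 and 68.7 in P6 cKO, and 87.9 and 85.2 against 79.0 and 77.1 at P8. The pairs overlapped at P1 and lay apart at P6 and P8, lower in cKO. *Rnf2* fell at P6 by -0.40 (SE 0.065, edgeR adjusted p = 0.00156) on the log2 scale, a fold of 0.757 kept in all 17 alternative settings, and the P8 difference of -0.15 was not called (edgeR adjusted p = 0.109). Exons of *Trmt1l* overlap those of *Rnf2*, and *Trmt1l* had means of 33.9 and 31.2 CPM in P6 WT and cKO. The paralogue *Ring1* ranged over 17.3 to 22.1 CPM, with a P6 log2 difference of -0.0020 (-0.30 to 0.30).

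The PCGF subunits decide which form of PRC1 a RING protein enters. *Pcgf5*, of a variant complex, had the largest average difference of all 45 genes. Its WT and cKO pairs were 15.8 and 25.5 against 39.1 and 38.5 CPM at P1, 15.5 and 19.8 in P6 WT against 37.2 and 22.2 in P6 cKO, and 11.02 and 8.70 against 23.2 and 17.4 at P8. The cKO pair was above the WT pair at every age, while libraries of a pair differed by up to 1.68 times, in P6 cKO. *Pcgf5* rose at P8 by 1.04 (SE 0.29, edgeR adjusted p = 0.0226) on the log2 scale, a fold of 2.06, and on average over the ages by 0.90 (SE 0.17, edgeR adjusted p = 0.00305). The P8 call was lost without P8 WT replicate 1 (1.22), P8 WT replicate 2 (0.88) or P8 cKO replicate 1 (0.82), with edgeR adjusted p of 0.0506 to 0.136, whereas the average kept its call in all 16 alternatives. At P1 and P6 its log2 differences of 0.91 and 0.75 were not called (edgeR adjusted p = 0.0939 and 0.0941). Exons of the annotated gene *F530104D19Rik* overlap those of *Pcgf5*, and its level was not analysed here.

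*Pcgf3*, the close relative that acts in the same kind of variant complex, went the other way at P8. It had 68.5 and 72.2 CPM in P1 WT and 84.2 and 74.1 in P1 cKO, 109 and 108 in P6 WT against 98.7 and 99.0 in P6 cKO, and 137 and 136 against 106 and 101 at P8. The cKO pair was above WT at P1 and below it at P6 and P8, and none of these pairs overlapped. The P1 and P6 differences were not called. *Pcgf3* fell at P8 by -0.40 (SE 0.064, edgeR adjusted p = 0.00109) on the log2 scale, a fold of 0.758. The ratio of *Pcgf3* to *Pcgf5* per kilobase was therefore 16.5 to 20.7 in P8 WT and 6.06 to 7.72 in P8 cKO. *Pcgf2* (MEL18), of canonical PRC1, had 12.4 and 15.9 CPM in P1 WT and 25.6 and 25.3 in P1 cKO, at a log2 difference of 0.85 (0.28 to 1.41) that was not called (edgeR adjusted p = 0.0702). Its paralogue *Bmi1*, a regulator of neural stem cell self-renewal, was not called, with log2 differences of 0.10, -0.043 and 0.056 and an interval of -0.095 to 0.21 at P8. *Pcgf1* and *Pcgf6* ranged over 4.14 to 7.70 and 9.61 to 12.9 CPM and were not called.

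The readers of canonical PRC1 held the largest difference that was called at P6. *Cbx7*, which binds trimethylated H3K27, had 15.1 and 14.5 CPM in P1 WT and 13.5 and 13.6 in P1 cKO, 10.1 and 10.4 in P6 WT against 17.9 and 20.6 in P6 cKO, and 7.90 and 8.60 against 9.90 and 11.4 at P8. The P6 cKO pair was the highest of all groups, well clear of the P6 WT pair. *Cbx7* rose at P6 by 0.91 (SE 0.11, edgeR adjusted p = 2.43e-04) on the log2 scale, a fold of 1.88 kept in all 17 alternatives, and at P8 by 0.37 (SE 0.11, edgeR adjusted p = 0.0262). Without P8 WT replicate 1 (0.31), P8 WT replicate 2 (0.43) or P8 cKO replicate 2 (0.26) the P8 difference was not called, nor with the 4 libraries of P8 alone (0.35, edgeR adjusted p = 0.0867). Exons of *Cbx7* overlap those of *Apobec3*, whose means were 19.8 and 20.8 CPM in P6 WT and cKO and 29.8 and 46.8 in P8 WT and cKO, so at P8 the 2 genes were higher in the same libraries.

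*Cbx6*, which lies 81118 bases from *Cbx7* on chromosome 15, had 153 and 138 CPM in P6 WT and 206 and 201 in P6 cKO. At P1 its pairs were 113 and 133 in WT and 111 and 117 in cKO, and at P8 135 and 129 in WT and 116 and 125 in cKO. Only the P6 cKO pair stood out, and *Cbx6* rose there by 0.48 (SE 0.083, edgeR adjusted p = 0.00237) on the log2 scale, a fold of 1.40. *Cbx8* and *Cbx2*, the remaining readers, stood at 4.41 to 8.82 and 0.540 to 6.84 CPM and were not called, with P6 intervals of -0.081 to 0.97 and -2.13 to 1.39.

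The PHC proteins join PRC1 complexes into larger bodies through their SAM domains. *Phc2* had 90.4 and 101 CPM in P6 WT and 116 and 113 in P6 cKO, 64.4 and 68.6 against 73.9 and 79.5 at P1, and 74.5 and 70.6 against 77.1 and 78.6 at P8. The cKO pair lay above the WT pair at each age, and *Phc2* rose at P6 by 0.26 (SE 0.069, edgeR adjusted p = 0.0219) on the log2 scale. Without P6 WT replicate 1 (0.18), P6 cKO replicate 1 (0.24) or P6 cKO replicate 2 (0.28) it was not called, nor with the 4 libraries of P6 alone (0.26, edgeR adjusted p = 0.0816). *Phc1* had 29.9 and 25.9 CPM in P8 WT and 20.2 and 23.1 in P8 cKO, and all 8 earlier libraries lay between 27.3 and 33.0. It fell at P8 by -0.36 (SE 0.11, edgeR adjusted p = 0.0287), a call lost without P8 WT replicate 1 (-0.25) or P8 cKO replicate 1 (-0.27). With the 4 libraries of P8 alone the call was lost too (-0.38, edgeR adjusted p = 0.0574). *Phc3* had 124 and 27.1 CPM in P6 WT beside 32.6 and 32.8 in P6 cKO. A single P6 WT library was high, and the P6 log2 difference of -1.20 (-2.36 to -0.047) was not called.

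In the variant PRC1 complexes RYBP or YAF2 takes the place of a CBX reader. *Rybp* had 64.8 and 62.6 CPM in P6 WT and 80.1 and 79.8 in P6 cKO, while the 4 P1 libraries lay between 47.0 and 51.6 and the 4 P8 libraries between 54.3 and 54.9. It rose at P6 by 0.33 (SE 0.056, edgeR adjusted p = 0.00215) on the log2 scale, a fold of 1.26 kept in all 17 alternatives, and its P8 difference was -0.013 (-0.14 to 0.11). *Yaf2* had a P6 difference of 0.20 (-0.041 to 0.43) that was not called. *Kdm2b*, which brings variant PRC1 to CpG islands, ranged over 32.5 to 39.9 CPM and was not called.

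*Bap1* and *Asxl1*, the catalytic and cofactor subunits of the complex that removes ubiquitin from H2A, were not called at any age. *Asxl1* was among the steadiest genes of the set, at 86.4 to 95.3 CPM over all 12 libraries, with log2 differences of 0.0096, -0.074 and 0.044. *Bap1* ranged over 45.3 to 61.7 CPM.

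**Figure D4:**
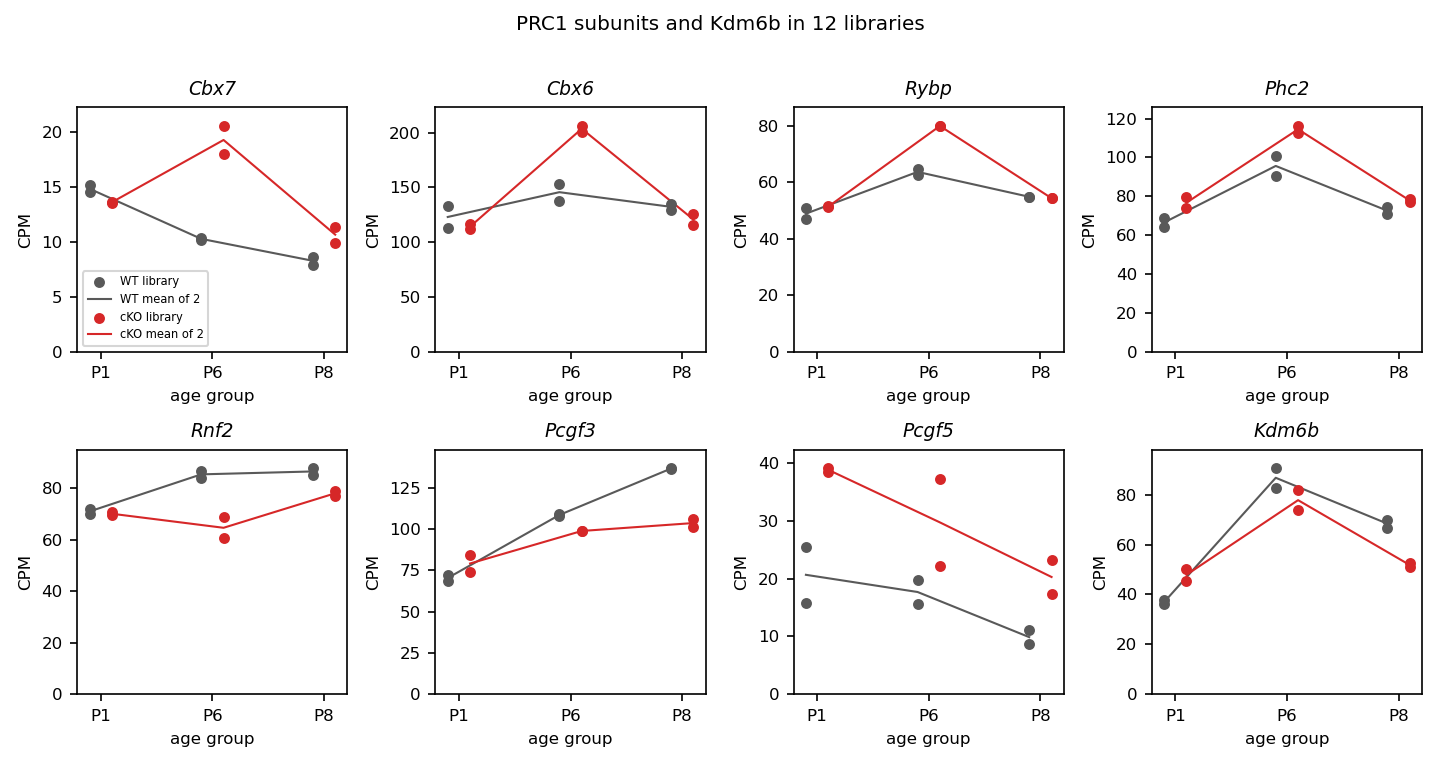
CPM (vertical axis from 0) of 7 PRC1 subunits and the H3K27 demethylase *Kdm6b* at P1, P6 and P8, with a point for each library, lines through the mean of each pair, WT in grey and cKO in red. *Cbx7*, *Cbx6* and *Rybp* in cKO peak at P6 (17.9 and 20.6 CPM for *Cbx7*), *Rnf2* in cKO dips there, and the *Pcgf3* lines cross after P1.

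Of the 6 H3K4 methyltransferases, 2 were called by genotype, both at P6. *Setd1b*, one of the enzymes responsible for bulk trimethylation, had 56.6 and 57.2 CPM in P1 WT and 49.3 and 50.9 in P1 cKO, 41.4 and 44.2 in P6 WT against 34.8 and 37.1 in P6 cKO and 52.3 and 50.6 against 48.4 and 52.6 at P8. The cKO pair was lower at P1 and P6 and the P8 pairs overlapped. *Setd1b* fell at P6 by -0.25 (SE 0.068, edgeR adjusted p = 0.0229) on the log2 scale, a call lost without P6 WT replicate 2 (-0.21) or P6 cKO replicate 1 (-0.21). The call was also lost with the 4 libraries of P6 alone (-0.26, edgeR adjusted p = 0.119). *Kmt2a* (MLL1) had 146 and 145 CPM in P6 WT and 172 and 170.3 in P6 cKO. It rose by 0.23 (SE 0.075, edgeR adjusted p = 0.0498), just inside the threshold, and the call was lost in 11 of 17 alternatives, at log2 differences of 0.22 to 0.24. Among those 11 were the fits that left out any 1 of the P6 or P8 libraries, with edgeR adjusted p of 0.0627 to 0.166.

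*Kmt2d*, the main enhancer H3K4 methyltransferase, and its paralogue *Kmt2c* were not called between genotypes. The P8 log2 difference of *Kmt2d* was -0.00036 with an interval of -0.19 to 0.19, beside levels of 168 and 182 CPM in P8 WT and 169 and 181 in P8 cKO. *Kmt2b* and *Setd1a* ranged over 53.1 to 74.9 and 58.6 to 76.8 CPM, also without a call.

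Of the 4 subunits shared by these complexes, 1 was called. *Ash2l*, which activates the methyltransferases, had 62.4 and 65.4 CPM in P1 WT and 62.6 and 65.7 in P1 cKO, 59.0 and 58.3 in P6 WT against 47.0 and 48.5 in P6 cKO and 56.2 and 56.3 against 56.7 and 54.3 at P8. The P6 cKO pair was the lowest of the 6 and the pairs overlapped at P1. *Ash2l* fell at P6 by -0.30 (SE 0.056, edgeR adjusted p = 0.00405) on the log2 scale, a fold of 0.814 kept in all 17 alternatives. *Wdr5* and *Rbbp5*, which complete the common core, and the MLL cofactor *Men1* had P6 differences of -0.17 (-0.39 to 0.048), -0.087 (-0.27 to 0.092) and -0.35 (-0.83 to 0.14), none of them called.

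*Kdm6b* (JMJD3), the demethylase that removes H3K27 methylation, was the 1 member called at P1 and reversed its sign by P8. It had 37.6 and 36.3 CPM in P1 WT and 50.2 and 45.6 in P1 cKO, 90.7 and 82.9 in P6 WT against 81.9 and 73.8 in P6 cKO and 66.8 and 70.0 against 52.7 and 50.9 at P8. The cKO pair was above the WT pair at P1 and below it at P6 and P8, with no overlap at any age. *Kdm6b* rose at P1 by 0.37 (SE 0.078, edgeR adjusted p = 0.0170) and fell at P8 by -0.40 (SE 0.078, edgeR adjusted p = 0.00328) on the log2 scale, while the P6 difference of -0.16 (-0.33 to 0.018) was not called. The P1 call was lost without P1 WT replicate 1 (0.40), P1 WT replicate 2 (0.35) or P1 cKO replicate 1 (0.30). It was also lost with the 4 libraries of P1 alone (0.38, edgeR adjusted p = 0.0647). The antisense gene *Kdm6bos* was below 1 CPM in the mean of every group.

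*Crebbp* and *Ep300*, the paired H3K27 acetyltransferases, were not called by genotype. *Ep300* had 162 and 169 CPM in P8 WT and 192 and 193 in P8 cKO, which did not overlap, at a log2 difference of 0.22 (0.015 to 0.42, edgeR adjusted p = 0.0935). The difference of *Crebbp* there was -0.069 (-0.24 to 0.099).

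Averaged over the 3 ages, 4 members rose and 5 fell, which is 20.0% of the set against 31.3% of all genes, 17.7% higher and 13.5% lower. *Pcgf5*, *Cbx7* (0.38), *Phc2* (0.19) and *Rybp* (0.13) rose. *Jarid2*, *Rnf2* (-0.19), *Setd1b* (-0.15), *Pcgf3* (-0.12) and *Ash2l* (-0.10) fell, with edgeR adjusted p of 0.00121 to 0.0420 over the 9. The core PRC2 genes *Ezh1*, *Ezh2*, *Eed* and *Suz12* were not called, at -0.074, -0.16, 0.0052 and -0.12. *Ezh2* was called by DESeq2 (-0.16, adjusted p = 0.0400) and by edgeR without P1 WT replicate 2 (-0.18, adjusted p = 0.0487) or P8 WT replicate 2 (-0.19, adjusted p = 0.0291), and *Suz12* without P1 cKO replicate 2 (-0.28, adjusted p = 0.00151). The call of *Jarid2* was lost on leaving out any library except P1 cKO replicate 2 or P8 WT replicate 2, at log2 differences of -0.22 to -0.15. That of *Pcgf3* was lost without any library except P1 WT replicate 1 or P1 cKO replicate 1, at -0.13 to -0.094. That of *Ash2l* was lost without any library except P1 WT replicate 1, P1 cKO replicate 2 or P6 cKO replicate 2, at -0.11 to -0.093. A block on the replicate number also lost the calls of *Jarid2* and *Ash2l*, at edgeR adjusted p of 0.0608 and 0.0546.

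Whether the genotype difference itself changed with age was tested by interaction terms. From P1 to P6, 2 members gained and 3 lost in cKO relative to WT (15.3% of all genes were called, 7.12% higher and 8.19% lower). The terms were 1.03 (SE 0.15, edgeR adjusted p = 0.00156) for *Cbx7*, 0.59 for *Cbx6*, -0.53 for *Kdm6b*, -0.38 for *Rnf2* and -0.30 for *Ash2l*. From P6 to P8, 1 gained and 3 lost (21.5% of all genes, 12.6% higher and 8.83% lower), namely *Ash2l* (0.28) against *Cbx6* (-0.62), *Cbx7* (-0.54) and *Rybp* (-0.34). After its P6 rise *Cbx6* was no longer called in cKO at P8 (-0.13), while the excess of *Cbx7* became smaller but was still called (0.37). Between P1 and P8, 1 gained and 4 lost (25.7% of all genes, 14% higher and 11.7% lower), namely *Cbx7* (0.49) against *Kdm6b* (-0.78), *Pcgf3* (-0.57), *Phc1* (-0.55) and *Ezh2* (-0.44). The 3 interaction terms share groups and are not independent of each other. The P6 minus P1 term of *Rnf2* was not called without P1 WT replicate 1 (-0.37), P1 cKO replicate 1 (-0.38) or P6 WT replicate 2 (-0.37). For *Ash2l* the call of that term was lost at least without P1 WT replicate 1 and with the replicate block. The P8 minus P6 term of *Cbx7* was not called without P6 WT replicate 1 (-0.53), P6 WT replicate 2 (-0.55), P6 cKO replicate 2 (-0.44), P8 WT replicate 2 (-0.48) or P8 cKO replicate 1 (-0.45), and that of *Ash2l* without any 1 of the P6 or P8 libraries (0.25 to 0.31), with the replicate block (0.28, edgeR adjusted p = 0.0514) or with DESeq2 size factors (0.25, edgeR adjusted p = 0.0537). The P8 minus P1 term of *Phc1* was not called without P1 WT replicate 1 (-0.55), P1 WT replicate 2 (-0.55), P1 cKO replicate 1 (-0.47), P8 WT replicate 1 (-0.45) or P8 cKO replicate 1 (-0.46). That of *Ezh2* was lost at least without P1 WT replicate 2, P1 cKO replicate 1, P8 WT replicate 1, P8 cKO replicate 1 or P8 cKO replicate 2. That of *Cbx7* was lost without any 1 of the P1 libraries, P6 WT replicate 1 or 2, P8 WT replicate 1 or 2, or P8 cKO replicate 2 (0.39 to 0.55), and with DESeq2 (0.47, adjusted p = 0.0517).

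More of the subunits were called between ages than between genotypes. In WT, 8 members rose and 8 fell from P1 to P6, which is 35.6% of the set against 39.9% of all genes, 20.7% higher and 19.2% lower. From P6 to P8 in WT, 8 rose and 7 fell, 33.3% against 35.3% of all genes, 16.2% higher and 19% lower. In cKO, 8 rose and 9 fell from P1 to P6, 37.8% against 38.5% of all genes, 19.7% higher and 18.7% lower. From P6 to P8 in cKO, 11 rose and 9 fell, 44.4% against 39.1% of all genes, 20% higher and 19.2% lower. These shares are near those of all genes. The 2 steps within a genotype share their P6 libraries.

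The largest step was that of *Kdm6b* in WT, from 37.6 and 36.3 CPM at P1 to 90.7 and 82.9 at P6, where it rose by 1.23 (SE 0.079, edgeR adjusted p = 2.00e-06) on the log2 scale, a fold of 2.35. In cKO it rose by 0.70 over the same step, and then fell by P8 in both genotypes (-0.34 in WT and -0.59 in cKO). *Phc2* and *Rybp* followed the same course, with *Phc2* at 0.52 in WT and 0.58 in cKO from P1 to P6 and at -0.40 and -0.56 from P6 to P8. *Rybp* stood at 0.38 and 0.64, then at -0.22 and -0.56. *Pcgf3* rose at both steps in WT (0.63 and 0.33), and in cKO at the first (0.32) with 0.068 (-0.076 to 0.21) at the second. *Cbx6* rose from P1 to P6 in both genotypes, by 0.24 in WT and 0.84 in cKO, and fell in cKO by P8 (-0.75).

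*Cbx7* was the 1 member called in opposite directions in the 2 genotypes over a step. From P1 to P6 it fell in WT, by -0.53 (SE 0.11, edgeR adjusted p = 0.00349) on the log2 scale, and rose in cKO, by 0.50 (SE 0.11, edgeR adjusted p = 0.00485). From P6 to P8 it fell in both, by -0.31 in WT and -0.85 in cKO, and was lowest at P8 within each genotype.

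A group of genes took the reverse course, down at P6 and up again by P8. *Ezh1*, *Ep300*, *Kmt2d*, *Rbbp5* and *Setd1b* fell from P1 to P6 and rose from P6 to P8 in both genotypes. *Kmt2d* had 146 and 149.8 CPM in P1 WT, 108 and 106 in P6 WT and 168 and 182 in P8 WT, with steps of -0.47 (SE 0.085, edgeR adjusted p = 0.00193) and then 0.71 (SE 0.085, edgeR adjusted p = 1.97e-04). In cKO its steps were -0.32 and 0.79. *Ezh1* had steps of -0.42 and 0.49 in WT and -0.33 and 0.59 in cKO. *Ep300* had 168 and 159 CPM in P1 cKO, 115 and 131 in P6 cKO and 192 and 193 in P8 cKO, and rose in that last step by 0.65 (SE 0.091, edgeR adjusted p = 3.54e-04) on the log2 scale. *Rbbp5* rose from P6 to P8 by 0.42 in WT and 0.58 in cKO, and *Crebbp* by 0.41 and 0.45.

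*Ezh2* did not rise again. In cKO it fell at both steps, by -0.46 and -0.41 on the log2 scale, and in WT its steps of -0.22 (-0.43 to -0.0022) and -0.21 (-0.43 to 0.0017) were not called. *Phf19*, a *Polycomb*-like partner, had 11.8 and 15.1 CPM in P1 WT, 10.3 and 11.9 in P6 WT and 6.49 and 6.57 in P8 WT, and fell in the last step by -0.77 (SE 0.16, edgeR adjusted p = 0.00584). In cKO it fell in the first step, by -0.51 (SE 0.16, edgeR adjusted p = 0.0333), a call lost without P1 cKO replicate 1 (-0.40) or P6 cKO replicate 2 (-0.36) at edgeR adjusted p of 0.166 and 0.187. *Rbbp4* fell from P6 to P8 in both genotypes (-0.32 and -0.32) and *Rbbp7* rose from P1 to P6 in both (0.50 and 0.42). *Aebp2* rose from P1 to P6 in WT, by 0.69 (SE 0.16, edgeR adjusted p = 0.00781), a call lost without P1 WT replicate 1 (0.58, edgeR adjusted p = 0.0626).

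**Figure D5:**
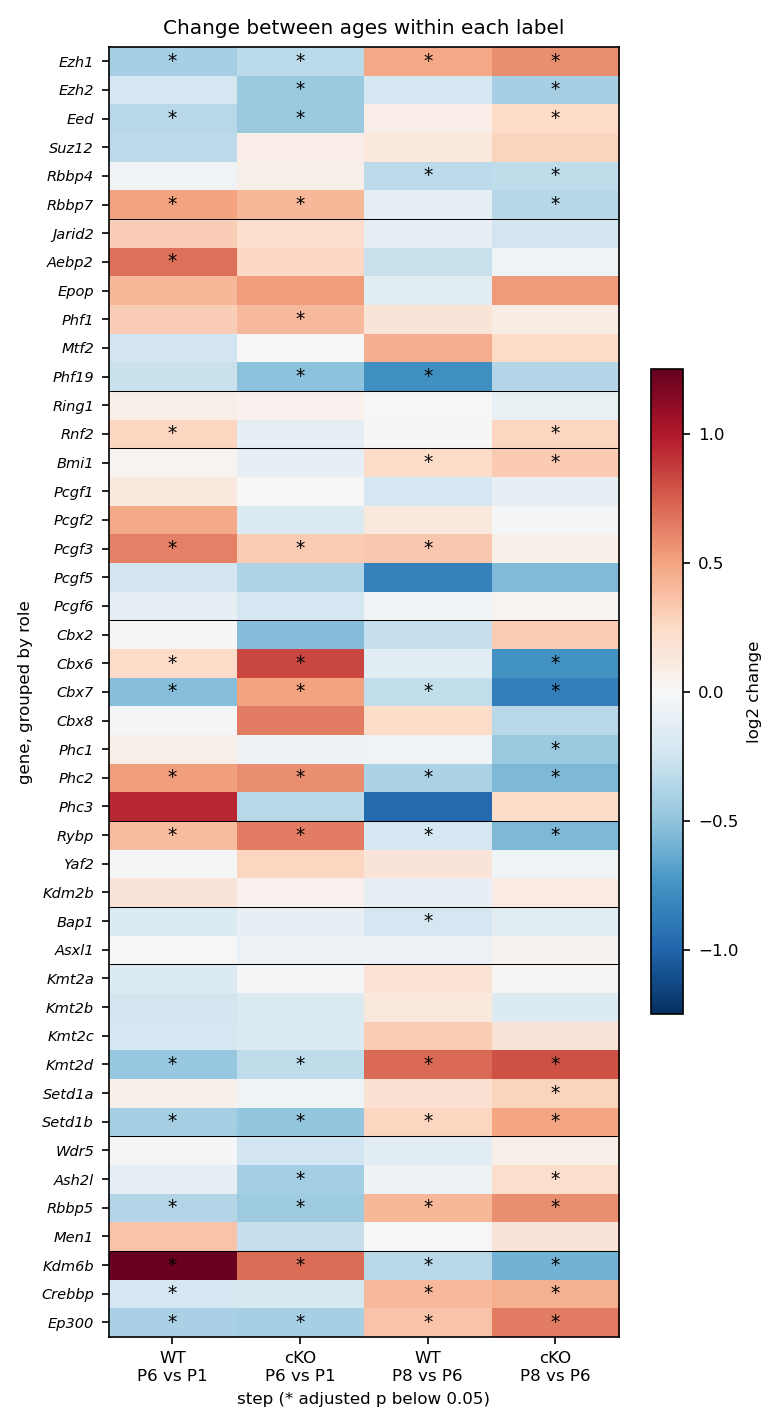
Log2 change of each subunit (rows, grouped by role) for P6 against P1 and P8 against P6 in WT and cKO (columns), red for higher and blue for lower at the later age, with an asterisk at an edgeR adjusted p below 0.05. *Kdm6b* in WT is the deepest red at 1.23, *Cbx7* is blue in WT and red in cKO over the first step, and *Ezh1*, *Kmt2d*, *Setd1b*, *Rbbp5* and *Ep300* turn from blue to red.

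Over all genes the time steps moved with base composition. With genes split by exon GC content into 5 equal groups, the median log2 change from P1 to P6 ran from -0.10 in the lowest to 0.10 in the highest group in WT, and from -0.10 to 0.12 in cKO. From P6 to P8 it ran from 0.11 to -0.13 in WT and from 0.081 to -0.087 in cKO. *Kdm6b* and *Kmt2d*, with GC contents of 59.6% and 58.4% on that measure, lay at the high end of GC content and changed in opposite directions in both steps. The part of base composition in single genes was not tested.

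Replicate libraries lay close together for most of the subunits. Of 270 pairs of libraries over 45 genes and 6 groups, 11 differed by 1.5 times or more (4.07%), against 7.29% for all genes of at least 1 CPM, and 37 members had no such pair. The widest was *Cbx2* in P8 WT, at 6.84 and 0.540 CPM, and its interval at P8 ran from -1.53 to 1.99.

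A list of 36 further *Polycomb* and trithorax partners was counted in the same fits. In cKO against WT, 1 rose and 0 fell at P1 (5 at an unadjusted p below 0.05), 1 rose and 4 fell at P6, and 3 rose and 8 fell at P8, which is 2.78%, 13.9% and 30.6% of the list against the 9.48%, 25.7% and 34.4% of all genes given above. The largest differences, named after their values were seen, were those of *Asxl3* and *Auts2*. *Asxl3*, a neural paralogue of *Asxl1*, had 8.92 and 10.2 CPM in P6 WT against 0.156 and 0.183 in P6 cKO, and 16.4 and 21.2 in P8 WT against 1.96 and 2.39 in P8 cKO. The log2 differences were -5.80 and -3.11 (edgeR adjusted p = 1.36e-05 and 9.87e-05). *Auts2*, a subunit that turns variant PRC1 towards activation, had 20.5 and 21.4 CPM in P8 WT against 4.73 and 6.09 in P8 cKO, a log2 difference of -1.95 (edgeR adjusted p = 0.000192), and -1.39 at P6. At P1, where *Asxl3* was at 0.0492 and 0.201 CPM in WT and 0.527 and 0.867 in cKO, it rose by 2.56 (edgeR adjusted p = 0.0104). Both genes were highest in P8 WT, as was the sum of fibroblast and meningeal markers, whose part in these differences was not tested. *E2f6*, the DNA-binding subunit of a variant PRC1, rose at P6 (0.54) and P8 (0.31).

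Because *Ezh2* and *Phf19* are known to follow the cell cycle, 18 proliferation genes were counted in the same fits. At P1 0 rose and 2 fell in cKO (8 at an unadjusted edgeR p below 0.05), at P6 0 rose and 13 fell (15 at an unadjusted p), and at P8 6 rose and 2 fell. From P6 to P8 in WT, the step in which *Phf19* fell, 0 rose and 16 fell (17 at an unadjusted p). Their summed level was 1233 to 1247 CPM in P1 WT, 1053 to 1073 in P1 cKO, 1262 to 1310 in P6 WT, 975 to 984 in P6 cKO, 847 to 853 in P8 WT and 934 to 941 in P8 cKO. The sum joins genes that moved apart at P8. The 6 that rose were *Pcna*, *Mcm2*, *Mcm3*, *Mcm5*, *Mcm6* and *Mcm7*, which act in DNA replication, with means of 82.4 CPM in P8 WT and 141 in P8 cKO for *Pcna* and 64.7 and 94.0 for *Mcm6*. The 2 that fell, as *Ezh2* did, were *Top2a*, from a mean of 151 to 123 CPM, and *Ccnb1*, from 29.9 to 19.8, which act in mitosis. Of the other mitotic genes, *Mki67*, *Ccnb2*, *Aurkb*, *Bub1*, *Plk1* and *Birc5* had lower means in P8 cKO than in P8 WT without a call, at log2 differences of -0.16 to -0.065. *Cdk1*, also not called, went the other way, with means of 28.2 CPM in P8 WT and 29.5 in P8 cKO. At P6, where 13 of the 18 fell, *Ezh2* was not called. The part of the proliferation genes in the *Ezh2* difference, or in the time steps of *Ezh2* and *Phf19*, was not tested.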

How the data were processed

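Gene-level counts from RNA-seq of 12 libraries of cultured mouse astrocytes were used as the authors deposited them, without normalization. The submitters' processing notes name HISAT2 and mm10, the study's methods GRCm38, while the sources used here do not give the counting program, its strand setting or the library kit. Genes were kept by filterByExpr and scaled by TMM, and CPM values refer to TMM-scaled library sizes. Group means were fitted with edgeR 4.0.16 (glmQLFit, R 4.3.3, limma 3.58.1) over all 12 libraries, and p-values were adjusted by Benjamini-Hochberg over 17938 genes. Exact permutation of 2 against 2 libraries cannot go below p = 0.333. Total counts of 54413504 to 89183250 set the counting precision, and the common biological coefficient of variation was 0.178. No 2 libraries of a group agreed within sampling noise. Replicate numbers did not pair libraries across groups (correlations -0.063 to 0.044).

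Values per library are given for *Ezh1*, *Ezh2*, *Eed* and *Suz12*, for the called members of each genotype comparison (at most 10, by size), and for the 4 and 5 largest calls of each interaction and time step. Gene positions, exon lengths and overlaps came from GENCODE vM21, and start windows from RefSeq (GRCm38.p6), where 36 of 45 members were found. Lists of further partners (*Scml2* not analysed here), proliferation genes and cell type markers were counted in the same fits. The members and lists were chosen with earlier results of these data known. Alternatives were DESeq2 1.42.0, its size factors, no filter, a replicate block, a fold minimum, each age alone, and each library left out.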

Additional observations from a re-analysis of the deposited data

Results flagged for a closer look

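For 9 members the difference between cKO and WT itself differed between ages, by interaction terms of the edgeR quasi-likelihood fit that share groups with each other. Between P1 and P6 the difference of *Cbx7* moved up by 1.03 on the log2 scale (SE 0.15, edgeR adjusted p = 0.00156) and that of *Cbx6* by 0.59 (adjusted p = 0.00889). Over the same ages *Kdm6b* changed by -0.53 (adjusted p = 0.0105), *Rnf2* by -0.38 (adjusted p = 0.0207) and *Ash2l* by -0.30 (adjusted p = 0.0325). Between P6 and P8 the terms were -0.62 for *Cbx6* (adjusted p = 0.00535), -0.54 for *Cbx7* (adjusted p = 0.0311), -0.34 for *Rybp* (adjusted p = 0.0137) and 0.28 for *Ash2l* (adjusted p = 0.0349, or 0.0514 with the replicate block and 0.0537 with DESeq2 size factors). Between P1 and P8 they were -0.78 for *Kdm6b* (adjusted p = 7.10e-04), -0.57 for *Pcgf3* (adjusted p = 0.00144), -0.55 for *Phc1* (adjusted p = 0.0261), -0.44 for *Ezh2* (adjusted p = 0.0403) and 0.49 for *Cbx7* (adjusted p = 0.0412). As given above, several of these calls were lost on leaving out some single libraries. These were *Rnf2* and *Ash2l* between P1 and P6, *Cbx7* and *Ash2l* between P6 and P8, and *Phc1*, *Ezh2* and *Cbx7* between P1 and P8.

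*Cbx7* and *Cbx6* were highest in the P6 cKO libraries (17.9 and 20.6 CPM, and 206 and 201 CPM), and *Cbx7* also had a called excess in P8 cKO. *Kdm6b* and *Pcgf3* crossed from higher to lower in cKO between P1 and P8, and both replicates of each pair stood on the same side. The P1 excess was called for *Kdm6b* but not for *Pcgf3*. The summed fibroblast and meningeal markers also changed sides between genotypes after P1, and their part in these terms was not tested.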

How the results depend on the processing

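Of 57 named calls, 38 held in every alternative run and 19 were lost in at least 1. These pool genotype calls with the largest calls of each interaction and time step. All genotype calls at single ages were included, but only the 5 largest of each time step. The parts lost in the 2 sets therefore cannot be compared. At P1, where 1 member was called, DESeq2 called 3, a fold minimum of 1.5 left 0, and an unadjusted p below 0.05 with that fold gave 2. At P6 (8 called) the fold minimum left 1, the unadjusted rule 3 and the 4 libraries of that age alone 5. At P8 (7 called) both fold rules left 2. With 1 library left out, the lone sample being assumed to vary like the other groups, counts ran from 0 to 3 at P1, 5 to 8 at P6, 3 to 8 at P8 and 6 to 11 for the average, from 3 to 6, 2 to 5 and 2 to 6 for the interaction terms P6 minus P1, P8 minus P6 and P8 minus P1, from 12 to 16 and 11 to 17 for the WT steps, and from 14 to 22 and 16 to 21 for the cKO steps. Fewer samples entered these fits, and the part of single libraries beyond that was not tested. Signs turned only for small differences without a call. With 1 library left out, *Ezh2* at P1 ran from -0.0028 (without P1 WT replicate 2) to 0.15, and *Suz12* at P6 from -0.090 to 0.028 and 0.032 (without P6 WT replicate 1 and P6 cKO replicate 1). *Ezh1* at P8 ran from -0.014 (without P8 WT replicate 2) to 0.054. On average, *Suz12* ran from -0.28 to 0.0018 (without P1 cKO replicate 1), and *Eed* from -0.0046 and -0.0056 (without P1 cKO replicate 2 and P8 WT replicate 2) to 0.016. Replicate numbers are shared by the groups but do not pair them, and a replicate block gave 1, 7, 7 and 7 calls at P1, P6, P8 and on average, 4, 3 and 6 interaction terms, and 14, 15, 17 and 20 calls for the time steps. DESeq2 size factors and the unfiltered table moved no count past 1.5 times.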
